A study of Mus musculus with 6 samples.

Results

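The genes described here encode voltage-gated ion channels and potassium channels, with the auxiliary subunits that carry the same names. They were taken from the deposited count table by their symbols: Kcn names for potassium channels, Cacn names for voltage-gated calcium channels, Scn names for voltage-gated sodium channels and Hcn names for the hyperpolarization-activated channels. Of 23284 gene symbols, 134 belonged to the set, of which 91 were potassium, 26 calcium, 13 sodium and 4 HCN channel genes, and 1 symbol that the potassium pattern also matches was left out. The RNA came from esophageal epithelium of E12.5 mouse embryos. There were 3 p63KO samples, whose embryos carried Trp63-CreERT2 on both alleles, and 3 samples of littermate controls titled wild type. Trp63 encodes p63, the transcription factor of stratified epithelia. The sources used here do not say how many embryos made up a sample or whether litters differed, and the p-values therefore measure only the spread among these libraries, which may be technical.

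Potassium channels let potassium leave the cell and pull the membrane potential towards rest, while voltage-gated sodium and calcium channels open on depolarization and let cations in. Calcium that enters through voltage-gated channels triggers the release of secretory granules and synaptic vesicles, which is why these families are best known from neurons, muscle and endocrine cells. In epithelia, potassium channels of the two-pore and KCNQ families are known for setting the driving force for salt and fluid transport. Most channels are assemblies of pore subunits with auxiliary subunits that change their gating or their delivery to the membrane.

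Every pore subunit of a potassium channel has at least 1 short pore loop that holds the selectivity filter. The stretches of coding sequence around the filter are shown for 7 members that changed, because they set out the families that the results run through. They were read from GENCODE M21 transcripts (build GRCm38), are 45 bases long, and carry in capitals the 3 codons at the heart of the filter, in which the first and last encode glycine.
Kcnh2: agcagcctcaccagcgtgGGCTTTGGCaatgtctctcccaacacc
Kcnh6: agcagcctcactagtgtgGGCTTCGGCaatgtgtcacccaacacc
Kcnc1: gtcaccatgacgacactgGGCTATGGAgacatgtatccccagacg
Kcnj5: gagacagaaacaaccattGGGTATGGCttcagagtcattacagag
Kcnn4: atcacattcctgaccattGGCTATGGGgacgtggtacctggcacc
Kcnk16, first pore loop: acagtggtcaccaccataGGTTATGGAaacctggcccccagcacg
Kcnk16, second pore loop: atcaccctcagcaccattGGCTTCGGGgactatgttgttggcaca
Kcnk4, first pore loop: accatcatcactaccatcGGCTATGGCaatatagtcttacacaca
Kcnk4, second pore loop: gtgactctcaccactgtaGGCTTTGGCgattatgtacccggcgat
The middle codon encodes tyrosine in Kcnc1, Kcnj5, Kcnn4 and the first loop of both two-pore genes. It encodes phenylalanine in Kcnh2, Kcnh6 and the second loop of Kcnk16 and Kcnk4. The ERG genes Kcnh2 and Kcnh6 were identical at 40 of the 45 bases, and Kcnh6 and Kcnc1 at 25. Both filter types occurred among genes that rose.

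The libraries held between 13335328 and 20093838 counts, and a count of 3 was worth between 0.153 and 0.223 CPM (counts scaled to library size). Trp63 lay between 550.6 and 674.1 CPM in control and between 62.2 and 76.7 CPM in p63KO, so each library matched its label. Markers of foregut epithelium (10 genes, Cdh1 the highest in control and Epcam in p63KO) summed to between 4456 and 4548 CPM in control and between 4718 and 4757 CPM in p63KO. Basal and squamous markers (10 genes, led by Krt15) summed to between 3198 and 4050 CPM in control and between 378.8 and 480.8 CPM in p63KO. Control replicate 3 stood apart, with 58 genes far above every other library against 2 in control replicate 1 and 0 elsewhere, and Xist was at 1.59 CPM in p63KO replicate 2 against at least 514.4 CPM in the other libraries. All 6 held RNA of Ddx3y, which is on the Y chromosome, at between 33.8 and 104.9 CPM, so 5 held both. In these bulk samples a change in the number of cells of a type and a change in RNA per cell cannot be told apart.

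Of the 134 channel genes, 73 had enough counts to be tested, and 41 of them changed: 32 were higher and 9 lower in p63KO (edgeR quasi-likelihood test, adjusted p under 0.05 over all genes). Over all 13849 tested genes, 29.6% were called, 15.3% higher and 14.3% lower. Of the tested channel genes 56.2% were called, 43.8% higher and 12.3% lower. The median log2 fold change of the tested channel genes was 0.50, beside -0.01 over all tested genes. Of the 73 tested channel genes, 26 rose and 6 fell at least 2-fold with a call. Of all 13849 tested genes, 928 (6.70%) and 684 (4.94%) did. The groups did not overlap for 45 of the 73, and over all tested genes this held for 44.1%. Of the 73, 8 passed the low-count filter through the p63KO libraries alone and 3 through the control libraries alone, and such genes had to differ to be tested. Among the other 62, 25 were higher (40.3%) and 6 lower (9.68%), beside 14.0% in each direction over all genes of that kind.

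**Figure D1:**
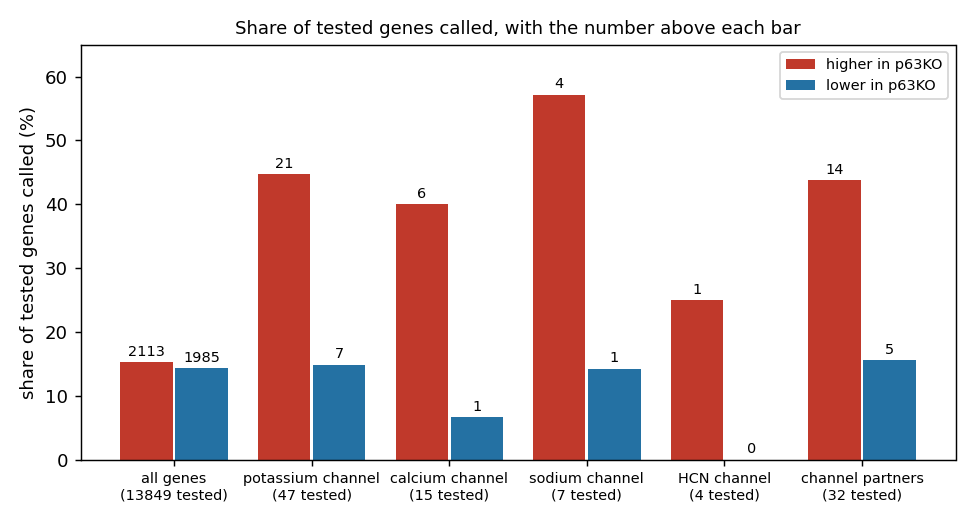
Share of tested genes called higher (red) or lower (blue) in p63KO at an adjusted p under 0.05 (vertical axis, percent), for all genes, each channel class and the channel partners, with the number of genes above each bar. The red bars of potassium (21 of 47), calcium (6 of 15) and sodium (4 of 7) channel genes stand above that of all genes, while the blue bars of the same classes lie between 6.67% and 14.9%.

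**Figure D2:**
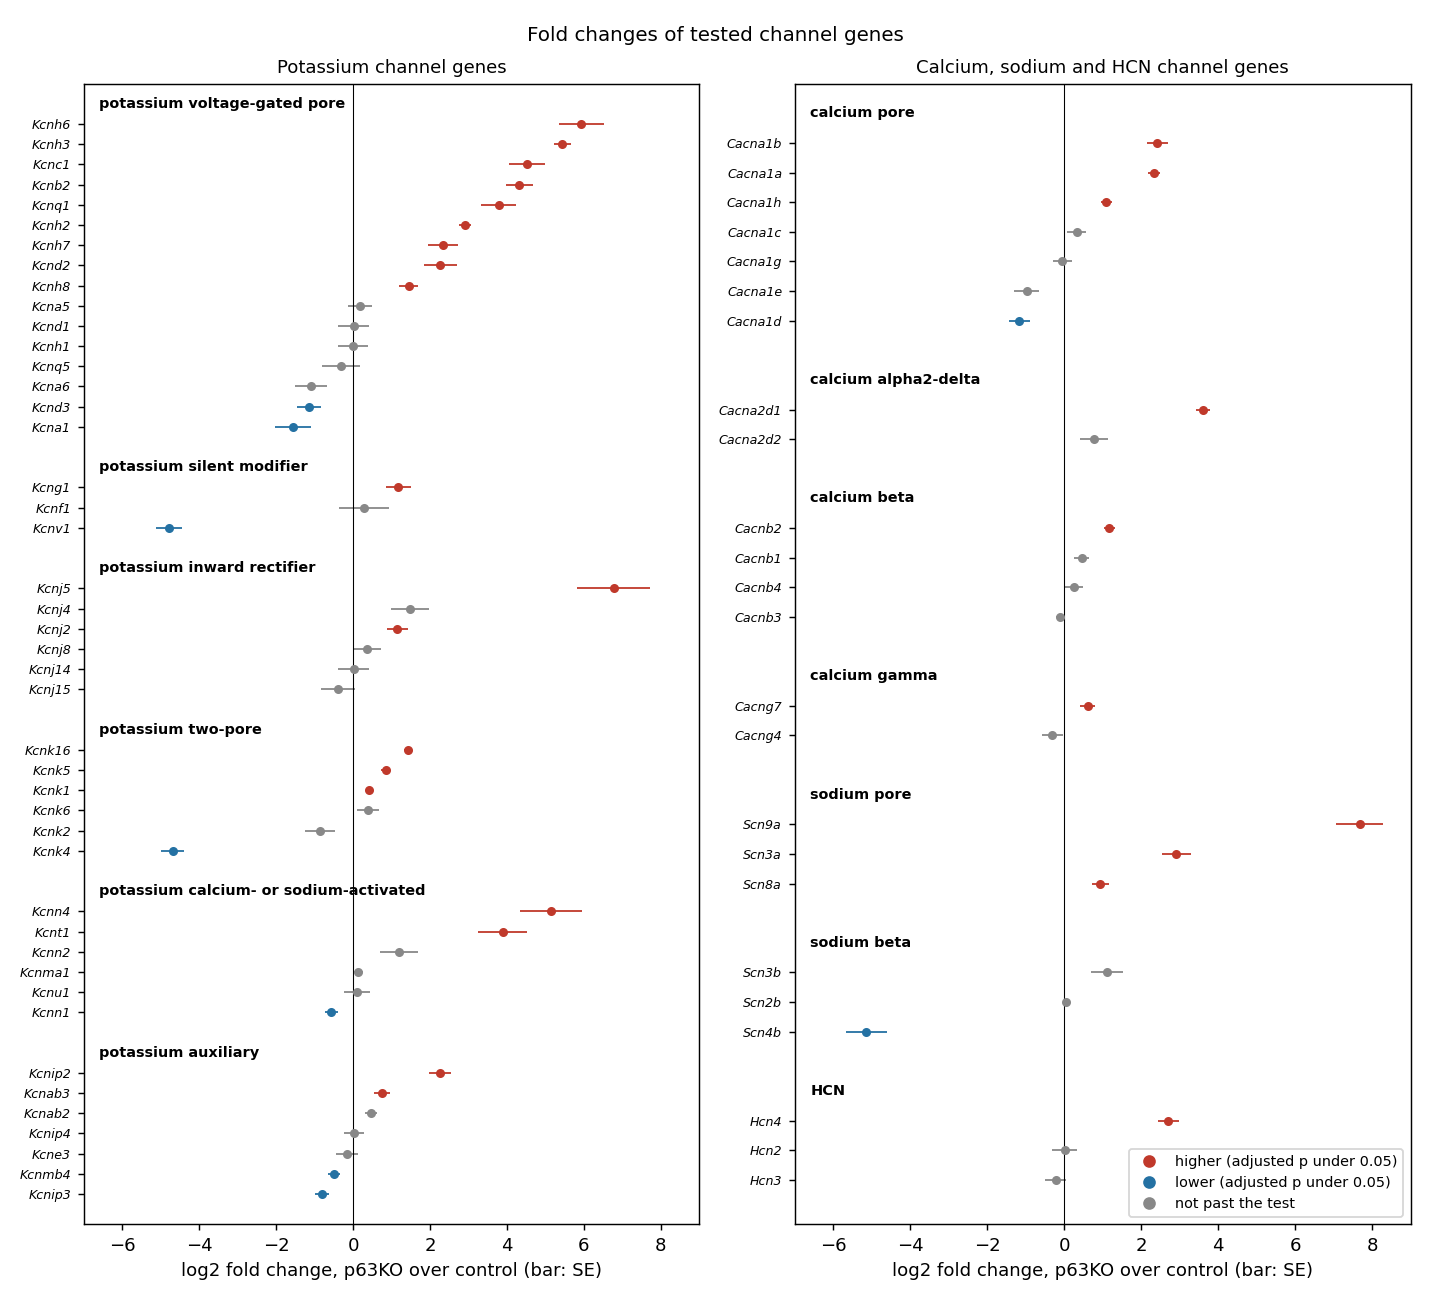
Log2 fold change of p63KO over control with its SE (horizontal axis) for tested channel genes, grouped by role, in red where higher, blue where lower and grey where not past the test. The largest rises are those of Scn9a, Kcnj5 and Kcnh6, and Scn4b, Kcnv1 and Kcnk4 lie near -5.

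Among potassium channel genes, 21 of 47 tested rose, 7 fell and 19 did not pass, with a median log2 fold change of 0.46. Without the 9 genes that passed the low-count filter through 1 group alone, 15 of 38 rose and 5 fell. Kcnv1 and Kcnk4 passed it through control alone. Kcnb2, Kcnc1, Kcnh7, Kcnj4, Kcnj5, Kcnn4 and Kcnt1 passed it through p63KO alone. All 9 had to differ to be tested, so their calls say little beyond that. Pore subunits of voltage-gated channels made up 11 of the 21 that rose, with Kcnb2, Kcnc1 and Kcnh7 among them. The summed level of potassium channel genes was 265.3 ± 15.97 CPM in control, against 469.9 ± 39.0 CPM in p63KO over all 91 genes (SD, n = 3 each), a sum to which a few abundant genes contribute most.

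Of 30 genes for voltage-gated pore subunits, 19 were tested, 11 rose and 2 fell. The EAG, ERG and ELK family (Kcnh genes) supplied 5 of these rises. Kcnh6, an ERG channel gene, was at 0.161, 0.0511 and 1.53 CPM in control and 41.4, 29.1 and 31.6 CPM in p63KO. All p63KO libraries lay far above all controls, and control replicate 3 was the highest control. The log2 fold change was 5.93 (SE 0.58, edgeR adjusted p = 6.1e-05), and 8.24 without control replicate 3. Kcnh3, an ELK channel gene, was at 0.806, 0.664 and 1.24 CPM in control and 47.6, 35.9 and 33.6 CPM in p63KO. This was a rise of 5.44 on the log2 scale (SE 0.23), with no overlap between groups. Kcnh2, the ERG channel gene that in the heart carries the rapid delayed rectifier current, was at 8.11, 6.03 and 6.42 CPM in control. It reached 60.5, 47.4 and 45.7 CPM in p63KO, a log2 fold change of 2.90 (SE 0.16). Kcnh7, the remaining ERG gene, rose by 2.33 (SE 0.38) and the ELK gene Kcnh8 by 1.44 (SE 0.24), while the EAG gene Kcnh1 was at -0.005 (SE 0.38) and did not pass. Kcnh3 overlaps Mcrs1 and Kcnh7 overlaps Gca on the opposite strand in GENCODE M21. The strand setting of the counts is not given, and neither partner passed the test, at 0.15 (SE 0.12) and 0.20 (SE 0.14).

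Delayed rectifiers of the Shaw and Shab families rose from low levels. Kcnc1, the Shaw channel gene known from fast-spiking neurons, was at 0.0537, 0.153 and 0.353 CPM in control and 5.31, 3.67 and 4.08 CPM in p63KO (4.52 on the log2 scale, SE 0.47, and 5.28 without control replicate 3). Kcnb2, a Shab channel gene, was at 0.269, 0.255 and 0.177 CPM in control and 5.61, 3.60 and 5.27 CPM in p63KO. Its log2 fold change was 4.32 (SE 0.35). In both genes the controls held few counts, 10 and 13 over 3 libraries.

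Kcnq1, the pore gene of a channel that serves both the heart and secretory epithelia, was at 0.644, 0.153 and 0.236 CPM in control and 4.96, 5.68 and 3.86 CPM in p63KO. The log2 fold change was 3.78 (SE 0.45), and 4.598 without control replicate 1, the highest control. Its relative Kcnq5 was at -0.31 (SE 0.50) and did not pass. Of the A-type channel genes, Kcnd2 rose by 2.27 (SE 0.42) and Kcnd3 fell by 1.14 on the log2 scale (SE 0.30), while Kcnd1 was at 0.02 (SE 0.41). Kcnd3 was at 4.94, 2.86 and 3.65 CPM in control and 1.83, 2.08 and 1.26 CPM in p63KO. Kcna1, a Shaker channel gene of axons, was at 3.01, 1.07 and 1.65 CPM in control and 0.649, 0.831 and 0.446 CPM in p63KO (-1.55, SE 0.46, edgeR adjusted p = 0.033). The groups did not overlap for either gene, but each call ended when certain single libraries were left out. Leaving out control replicate 1 or any 1 p63KO library ended the Kcna1 call (edgeR adjusted p between 0.052 and 0.14). The Kcna1 call also ended with limma-voom. Leaving out control replicate 1, p63KO replicate 1 or p63KO replicate 3 ended that of Kcnd3 (0.081, 0.054 and 0.070). Kcna6 was at -1.09 (SE 0.42, adjusted p = 0.079) and Kcna5 at 0.19 (SE 0.32).

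Silent subunits form no channel alone and modify Shab channels. Of the 10 genes, 3 were tested. Kcnv1 was at 9.99, 5.98 and 8.60 CPM in control and 0.295, 0.208 and 0.371 CPM in p63KO. Its log2 fold change was -4.78 (SE 0.34, edgeR adjusted p = 8.1e-06), the largest fall among the potassium channel genes, with 449 counts in control against 13 in p63KO. Kcng1 rose by 1.18 (SE 0.34), a call that ended with DESeq2 and when control replicate 1, control replicate 3, p63KO replicate 1 or p63KO replicate 2 was left out, and Kcnf1 was at 0.29 (SE 0.64).

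**Figure D3:**
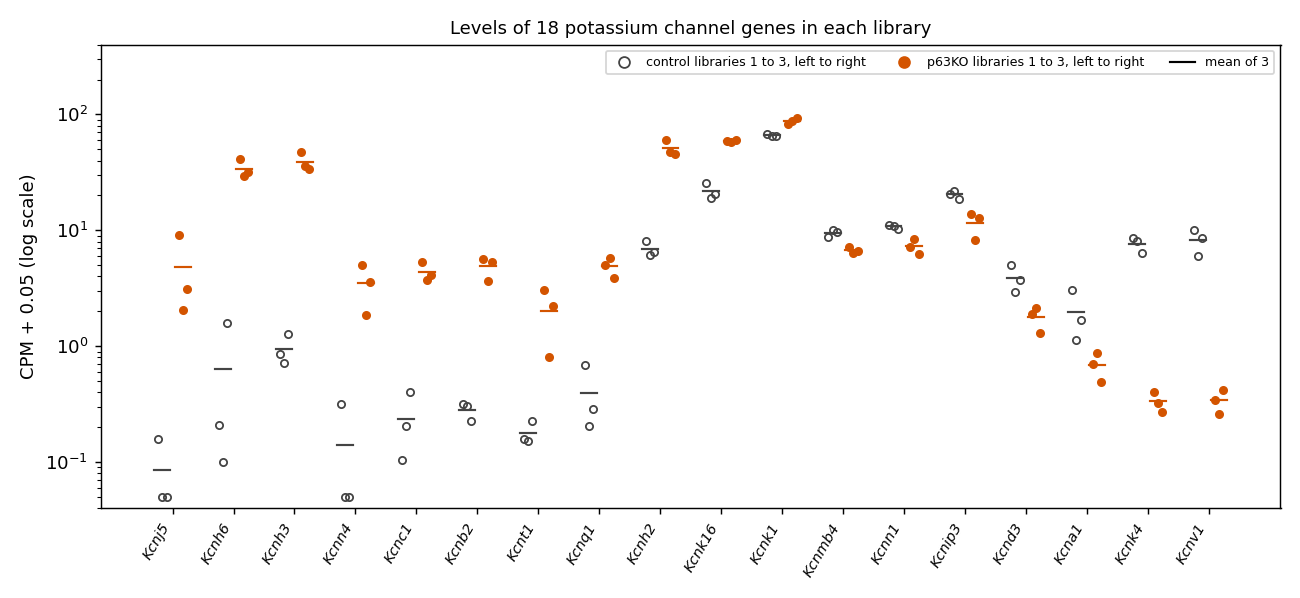
CPM plus 0.05 in each library (vertical axis, log scale) for 18 potassium channel genes ordered by fold change, with controls as open grey circles, p63KO as filled orange circles and the mean of 3 as a line. Genes on the left are near or under 1 CPM in control and above it in most p63KO libraries, Kcnk1 changes little, and Kcnk4 and Kcnv1 on the right are near 8 CPM in control and under 1 in p63KO.

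Inward rectifiers pass potassium best near the resting potential, and some are opened by G proteins. Of 14 genes, 6 were tested and 2 rose. Kcnj5, which forms a G protein-gated channel, was at 0.107, 0 and 0 CPM in control and 9.15, 2.01 and 3.04 CPM in p63KO. Control held 2 counts and p63KO 225, which scaled to depth is a ratio of 138.4 (exact 95% interval 37.9 to 1150, counting error only), and p63KO replicate 1 was the highest library. Its fitted log2 fold change was 6.77 (SE 0.95), 9.28 without control replicate 1 and 5.85 without p63KO replicate 1. Kcnj2, a strong inward rectifier gene, was at 1.45, 1.43 and 1.12 CPM in control and 3.30, 2.49 and 3.12 CPM in p63KO (log2 change 1.15, SE 0.27). Kcnj4 was at 1.47 (SE 0.49, edgeR adjusted p = 0.050) and Kcnj8, Kcnj14 and Kcnj15 lay between -0.38 and 0.37, none past the test. Of the partners that Kcnj5 is known to assemble with, Kcnj3 had 14 control counts and 25 p63KO counts, Kcnj6 had 0 and 9, and Kcnj9 had 12 and 4, too few to test.

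Two-pore channels carry the potassium leak that sets the resting potential, and they held the most abundant potassium channel genes. Kcnk1 was at 67.4, 65.7 and 65.01 CPM in control and 82.9, 86.9 and 93.3 CPM in p63KO (log2 change 0.41, SE 0.07). Kcnk16, known from the endocrine pancreas, was at 25.7, 19.1 and 20.5 CPM in control and 59.4, 57.3 and 59.8 CPM in p63KO. It rose by 1.43 on the log2 scale (SE 0.11), and its 3 p63KO libraries were nearly equal. Kcnk5, an acid-sensitive leak channel gene, rose by 0.85 (SE 0.12), from 15.1 ± 1.66 to 27.3 ± 1.85 CPM. Kcnk4, which encodes the mechanosensitive channel TRAAK, was at 8.54, 7.97 and 6.30 CPM in control and 0.354, 0.277 and 0.223 CPM in p63KO. The log2 fold change was -4.68 (SE 0.29). Kcnk4 overlaps 1700019N12Rik (now Catsperz) on the same strand, which fell by 3.88 on the log2 scale (SE 0.47), from 3.41 ± 0.847 to 0.234 ± 0.183 CPM, so their reads cannot be told apart where they overlap and the fall of Kcnk4 is uncertain. Kcnk2 and Kcnk6 did not pass, at -0.86 (SE 0.38) and 0.38 (SE 0.28).

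Per kilobase of the transcript with the longest coding sequence in GENCODE M21, Kcnk1 (29.5 CPM per kb) and Kcnk16 (23.8) had the highest control levels among potassium channel genes, ahead of Kcne3 (12.9), Kcnip3 (7.45) and Kcnmb4 (6.91). In p63KO the order was Kcnk16 (64.2), Kcnk1 (39.2), Kcnh2 (12.1), Kcne3 (11.6), Kcnh3 (10.6) and Kcnh6 (10.1). Neighbours from Kcnh2 to Kcnh6 differed by less than their SDs over 3 libraries, which were between 1.91 and 2.07 CPM per kb. The annotation used for the counts is not given, so these lengths may differ from those of the counted gene models.

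Channels opened by calcium or sodium divided. Kcnn4, the intermediate-conductance channel of epithelia and blood cells, was at 0.269, 0 and 0 CPM in control and 5.02, 1.801 and 3.56 CPM in p63KO (log2 change 5.15, SE 0.80). The 5 control counts lay in replicate 1, without which it was 8.82, and without control replicate 2 it was 4.56. Kcnt1, a sodium-activated channel gene, was at 0.107, 0.102 and 0.177 CPM in control and 3.01, 0.762 and 2.15 CPM in p63KO (3.89, SE 0.64). Both genes were lowest in replicate 2 among the p63KO libraries. The small-conductance gene Kcnn1 fell by 0.56 on the log2 scale (SE 0.16), from 11.1, 10.9 and 10.2 to 7.20, 8.38 and 6.24 CPM. Leaving out control replicate 1 or 2, or p63KO replicate 1 or 3, ended this call (edgeR adjusted p between 0.064 and 0.092). Kcnma1, the big-conductance channel gene, was at 17.8 ± 1.35 CPM in control and 19.6 ± 2.37 CPM in p63KO (0.14, SE 0.12). Kcnn2 was at 1.19 (SE 0.49) and Kcnu1, placed in this group by its name alone, at 0.10 (SE 0.34), and neither passed.

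Auxiliary subunits moved in both directions. Of 15 genes, 7 were tested, 2 rose and 2 fell. Kcnip2, which speeds the delivery of A-type channels to the membrane, rose from 1.12 ± 0.356 to 5.37 ± 0.563 CPM (2.26, SE 0.29), and Kcnab3 rose by 0.76 (SE 0.21), a call that ended when control replicate 1, control replicate 2, p63KO replicate 2 or p63KO replicate 3 was left out. Kcnip3, also known as the transcriptional repressor DREAM, was at 20.7, 21.7 and 18.7 CPM in control and 13.8, 8.17 and 12.6 CPM in p63KO (-0.82, SE 0.18). Kcnmb4, a subunit of big-conductance channels, fell from 8.65, 9.96 and 9.72 to 7.20, 6.37 and 6.53 CPM (-0.49, SE 0.15, edgeR adjusted p = 0.040). Its groups did not overlap, but the call was lost with each of the 6 libraries left out, with adjusted p between 0.052 and 0.13. The Kcnmb4 call was also lost with DESeq2, with upper quartile scaling and without the low-count filter. Kcnab2, Kcnip4 and Kcne3 did not pass, at 0.46 (SE 0.15, adjusted p = 0.051), 0.03 (SE 0.26) and -0.16 (SE 0.29). Kcnab2 passed under 5 of the other settings tried, with adjusted p between 0.041 and 0.14 over all of them.

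The remaining 44 potassium channel genes were under the low-count filter and not tested, with at most 40 over 3 libraries of a group. The most counts were those of Kcnk3, 14 in control and 31 in p63KO. Kcnk12 had 1 control count and 26 p63KO counts, a ratio scaled to depth of 32.0 (exact 95% interval 5.26 to 1311). Its p63KO libraries were uneven, with 16, 1 and 9 counts. Kcna7 had 25 and 1, a ratio of 20.3 in the other direction (3.33 to 834.3). Kcnj1 had 0 and 10 counts, at least 4.10-fold higher in the pooled counts if 3 counts over the group are taken for control. The p63KO libraries held 8, 2 and 0 of them, so the groups overlapped. Kcna2 had 5 and 20 counts. Kcna10, Kcng4, Kcnk9, Kcnk10 and Kcnk15 had no count, which allows up to 3 counts over each group.

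Among calcium channel genes, 6 of 15 tested rose, 1 fell and 8 did not pass, with a median log2 fold change of 0.45. The neuronal high-voltage pore genes Cacna1a and Cacna1b, the low-voltage pore gene Cacna1h and the auxiliary genes Cacna2d1 and Cacnb2 were higher. So was Cacng7, which is counted here by its symbol, while the pore gene Cacna1d was lower. The summed level of all 26 genes was 228.6 ± 23.0 CPM in control, against 387.4 ± 48.3 CPM in p63KO. A few abundant genes contribute most to this sum, and Cacnb3, the largest part in both groups, did not pass.

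Pore genes (Cacna1) numbered 10, of which 7 were tested. Cacna1a, the P/Q-type channel gene of presynaptic terminals, was at 14.0, 11.3 and 17.4 CPM in control and 80.6, 67.5 and 65.5 CPM in p63KO. The log2 fold change was 2.33 (SE 0.15, edgeR adjusted p = 5.4e-06), with all p63KO libraries above all controls. Cacna1b, the N-type channel gene, was at 1.88, 1.48 and 1.41 CPM in control and 11.3, 6.30 and 8.02 CPM in p63KO (2.42, SE 0.27). Cacna1h, a T-type channel gene that opens on small depolarizations, was at 45.5, 37.4 and 36.8 CPM in control and 100.6, 87.2 and 67.9 CPM in p63KO (1.10, SE 0.14). Its relative Cacna1g was at -0.05 (SE 0.25), and the third T-type gene, Cacna1i, had 14 control counts and 8 p63KO counts. Of the L-type genes, Cacna1d was at 8.22, 9.60 and 6.48 CPM in control and 3.30, 4.92 and 2.60 CPM in p63KO, a fall of 1.17 on the log2 scale (SE 0.27). Cacna1c was at 0.32 (SE 0.25), Cacna1s, the L-type gene of skeletal muscle, had 2 and 22 counts (ratio 13.5, exact 95% interval 3.33 to 118.7), and Cacna1f had 10 and 1. Cacna1e, the R-type gene, was at 10.4, 4.597 and 4.89 CPM in control and 3.54, 3.53 and 3.04 CPM in p63KO. The groups did not overlap, and with -0.97 (SE 0.33) it lay next to the threshold (edgeR adjusted p = 0.052, and between 0.023 and 0.18 over the alternatives). Cacna1d overlaps Chdh and Dcp1a on the opposite strand, of which Chdh rose (2.71, SE 0.44) and Dcp1a did not pass (-0.11, SE 0.06).

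Alpha2-delta subunits carry pore subunits to the surface. Cacna2d1 was at 3.97, 4.19 and 3.95 CPM in control and 57.5, 36.4 and 53.5 CPM in p63KO. The controls were nearly equal, and the log2 fold change of 3.60 (SE 0.19, edgeR adjusted p = 1.6e-06) was the largest among calcium channel genes. Cacna2d2 was at 0.78 (SE 0.37) and did not pass, and Cacna2d3 and Cacna2d4 had 11 and 7 counts in p63KO against 4 and 2 in control.

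Beta subunits, which bind the pore subunit inside the cell, included the most abundant channel gene of the whole set per kilobase in control, Cacnb3 (45.1 CPM per kb in control and 41.9 in p63KO). Its level was 111.8 ± 12.2 CPM in control, against 103.7 ± 8.46 CPM in p63KO, and it did not pass (-0.11, SE 0.09). Cacnb2 was at 8.27, 7.87 and 6.59 CPM in control and 18.7, 16.3 and 16.2 CPM in p63KO (1.17, SE 0.14). Cacnb1 and Cacnb4 were at 0.45 (SE 0.20) and 0.26 (SE 0.24). Of the gamma genes, Cacng7 was at 0.61 (SE 0.20) and passed narrowly (edgeR adjusted p = 0.050, as rounded). This call ended when any control library, p63KO replicate 1 or p63KO replicate 2 was left out, and without the low-count filter. Cacng4 was at -0.31 (SE 0.27). Cacng6, not tested, had 7 control counts and 50 p63KO counts, and Cacng2 and Cacng3 had none.

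Among sodium channel genes, 4 of 7 tested rose, 1 fell and 2 did not pass, with a median log2 fold change of 1.12. The 4 that rose were the 4 tested pore genes that the name rule takes, and the gene that fell encodes an auxiliary subunit. The pore gene Scn2a, counted under an older symbol outside the rule, did not pass. Scn9a passed the low-count filter through p63KO alone and Scn4b through control alone, so both had to differ to be tested, and among the other 5 genes 3 rose and 0 fell. Summed over 13 genes, the level was 37.0 ± 1.88 CPM in control, against 54.8 ± 2.24 CPM in p63KO. Of these sums, 23.1 CPM in control and 24.0 CPM in p63KO were Scn2b, which did not pass.

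Scn9a, the pore gene known from pain-sensing and sympathetic neurons and from neuroendocrine cells, was at 0, 0.0511 and 0 CPM in control and 6.02, 3.53 and 6.16 CPM in p63KO. Control held 1 count and p63KO 236, which scaled to depth is a ratio of 290.4 (exact 95% interval 51.6 to 11517), with a fitted log2 fold change of 7.68 (SE 0.61), and 9.40 without control replicate 2, which held the count. Scn3a, an embryonic neuronal pore gene, was at 1.07, 0.511 and 1.59 CPM in control and 9.68, 5.75 and 8.32 CPM in p63KO (2.91, SE 0.38). Scn8a, a pore gene of nodes of Ranvier, was at 3.28, 2.30 and 2.83 CPM in control and 6.02, 5.33 and 4.75 CPM in p63KO (0.94, SE 0.22). In Scn9a, Scn3a and Scn8a all p63KO libraries were above all controls.

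Beta subunits are single-pass proteins that tune sodium channel gating and also act in cell adhesion. Scn4b was at 5.75, 6.69 and 4.83 CPM in control and 0.118, 0.346 and 0 CPM in p63KO, with 320 counts in control and 7 in p63KO. The log2 fold change was -5.14 (SE 0.54, edgeR adjusted p = 9.3e-05), and -6.29 without p63KO replicate 2, which held 5 of the 7 counts. Scn2b, the most abundant sodium channel gene, was at 23.1 ± 1.35 CPM in control and 24.0 ± 1.42 CPM in p63KO (0.06, SE 0.10), and did not pass. Scn3b was at 1.12 (SE 0.41, adjusted p = 0.070), with p63KO replicate 2 (1.18 CPM) inside the control range. Of the genes not tested, Scn1a had the most counts, 29 control and 16 p63KO counts. Scn11a had 2 and 28 (ratio 17.2, exact 95% interval 4.34 to 149.2), but its p63KO libraries held 11, 17 and 0 counts, so the groups overlapped. Scn4a, the skeletal muscle pore gene, had 1 and 13 (ratio 15.99, 2.40 to 679.7). Scn10a and Scn7a had at most 3 counts in a group. Scn2a1, an older symbol of the pore gene Scn2a that the name rule does not take, was at 1.13 ± 0.264 CPM in control and 1.32 ± 0.611 CPM in p63KO (0.22, SE 0.40), and did not pass.

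HCN channels open on hyperpolarization and carry the pacemaker current of heart and neurons. Hcn4 was at 1.07, 1.23 and 2.12 CPM in control and 9.03, 8.93 and 10.8 CPM in p63KO. It rose by 2.71 on the log2 scale (SE 0.28, edgeR adjusted p = 8.4e-05), the only call among the 4 HCN genes. Hcn3, the highest of the 4 in control by CPM, was at 5.99 ± 0.576 CPM in control and 5.13 ± 2.05 CPM in p63KO (-0.22, SE 0.27), and Hcn2 was at 0.02 (SE 0.33).

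**Figure D4:**
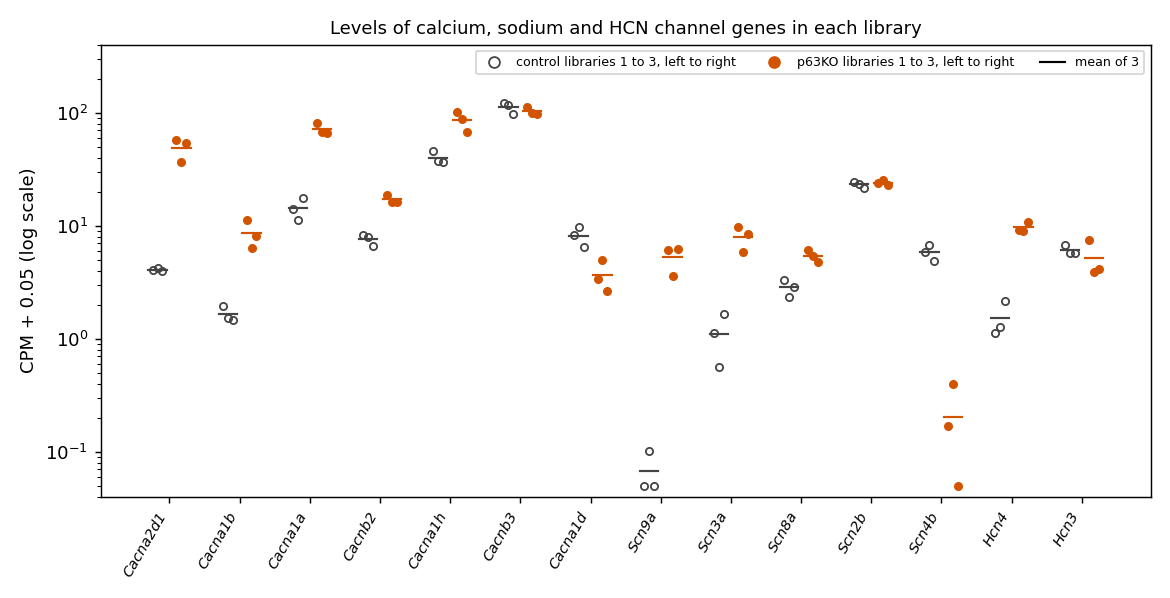
CPM plus 0.05 in each library (vertical axis, log scale) for calcium, sodium and HCN channel genes, in each class ordered by fold change, with controls as open grey circles, p63KO as filled orange circles and the mean of 3 as a line. The p63KO points of Cacna2d1 and Scn9a lie far above the controls, those of Cacnb3 and Scn2b overlap them, and those of Scn4b lie far below.

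Control replicate 3 differed from the other controls in several channel genes. Kcnq3 had 40 counts there and 0 in each other control, with 0, 3 and 0 in p63KO. Of 19 control counts of the silent subunit gene Kcnv2, 18 were in that library, and p63KO had none. Of 30 control counts of Kcnh6, 26 were there. Kcnk2 (7.77 CPM against 2.79 and 3.42) and Kcne3, a subunit of KCNQ channels (19.9 CPM against 9.72 and 9.60), were also highest in it, which widened the control spread of both. Without this library, 20 potassium channel genes rose and 6 fell, 6 calcium channel genes rose and 2 fell, and 4 sodium channel genes rose and 1 fell.

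**Figure D5:**
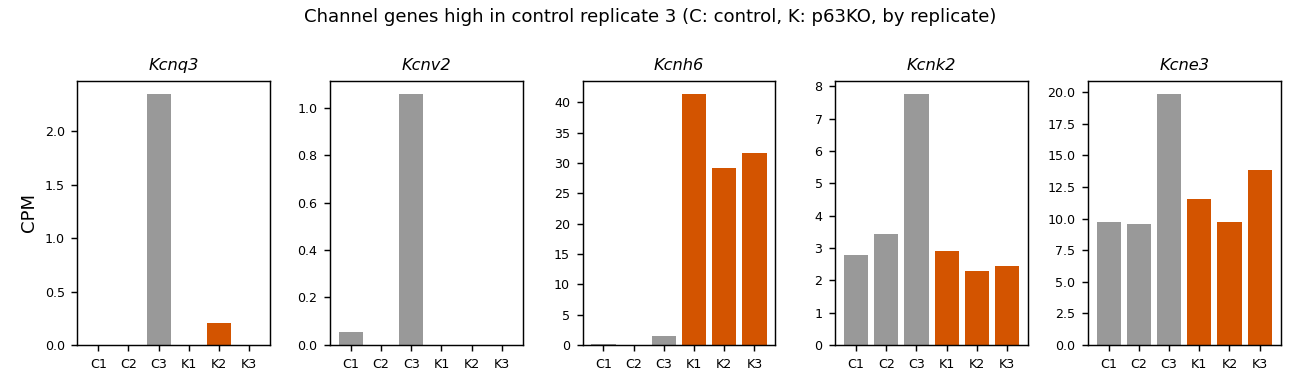
CPM in each library (vertical axis, linear from 0, a scale for each gene) of 5 channel genes that were higher in control replicate 3 (C3) than in the other controls, with controls in grey and p63KO in orange. Kcnq3 and Kcnv2 are near 0 in every library but C3, while Kcnh6 is still far lower in C3 than in p63KO.

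A list of 42 genes for proteins that bind these channels, and of related cation and chloride channels, was measured beside them. Of 32 tested, 14 rose (43.8%), 5 fell (15.6%) and 13 did not pass, with a median log2 fold change of 0.23. Among those that rose, Unc80 and Stac passed the low-count filter through p63KO alone, so they had to differ to be tested. Over all tested genes 15.3% rose and 14.3% fell, so the share of partners that fell was near that of all genes. Pex5l, the HCN channel partner TRIP8b, was at 1.24, 1.79 and 0.824 CPM in control and 47.3, 40.2 and 46.1 CPM in p63KO (5.09, SE 0.21), beside the rise of Hcn4. Fgf14, an intracellular partner of sodium channel pores, rose by 2.34 (SE 0.14), from 3.92, 5.01 and 4.42 to 22.7, 21.3 and 23.8 CPM, while Fgf11 and Fgf13 did not pass. Tpcn1, an endolysosomal cation channel gene, rose by 1.16 (SE 0.11). The sodium leak channel gene Nalcn and its subunit gene Unc80 rose by 1.95 (SE 0.22) and 4.06 (SE 0.46), and Unc79 was at -0.48 (SE 0.36). Of the intracellular calcium release channels, Ryr3 rose by 2.27 (SE 0.21), and the 3 inositol trisphosphate receptor genes Itpr1, Itpr2 and Itpr3 fell, with log2 fold changes of -1.05, -0.66 and -0.48. Gem, a small G protein that inhibits calcium channels, fell by 1.98 (SE 0.27), and Rem2, of the same family, rose by 1.27 (SE 0.24). Ank2, Stac, Clcn2, Clcn3, Calm2 and Calm3 also rose, and Ank3 also fell. The number that fell was between 2 and 5 with a library left out, and 2 without p63KO replicate 1.

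Markers of cell types that use these channels did not all move the same way. Neuroendocrine markers and 5 neuron markers rose, while 3 muscle markers fell and none rose. The part of these cell types in the results was not tested. All 10 neuroendocrine markers rose, among them Insm1, beside 15.3% of all tested genes. Neurod1, Neurog3, Chga, Chgb, Pcsk1, Scg3 and Nkx2-2 passed the low-count filter through p63KO alone, so they had to differ to be tested. The sum of the 10 was between 2.66 and 7.41 CPM in control and between 418.9 and 535.6 CPM in p63KO. Of 10 neuron markers, 5 rose (Tubb3, the highest in p63KO, with Elavl3, Elavl4, Stmn2 and Snap25). Their list summed to between 10.7 and 17.3 CPM in control and between 160.9 and 222.0 CPM in p63KO. Snap25 also passed the low-count filter through p63KO alone. Of the autonomic neuron markers in that list, Hand2 was at 4.81 ± 2.31 CPM in control and 3.12 ± 2.56 CPM in p63KO and did not pass, and Phox2a and Dbh, with at most 28 counts in a group, were not tested. Of 8 neural crest and glia markers, Ednrb fell and 7 did not pass or were not tested, with sums between 146.4 and 177.6 CPM in all libraries, most of it Erbb3. Muscle markers (10 genes, Acta2 the most abundant) summed to between 73.3 and 166.6 CPM in control and between 29.8 and 54.9 CPM in p63KO, where Myod1 had no count. Of 9 mesenchyme markers with a row, 3 rose (Dcn, Twist1 and Tbx18) and 4 fell, with sums between 449.7 and 531.8 CPM in control and between 1308 and 1711 CPM in p63KO, where most of it was Dcn. Endothelial markers (6 genes) summed to at most 6.83 CPM in any library. Blood markers (7 genes, led by Hbb-y) summed to at most 39.0 CPM, the highest sum being that of control replicate 3, and Hba-a1 had no count.

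Promoter windows were searched for 3 motifs because many members moved together. RefSeq windows (GRCm38.p6) were found for 98 of the 134 genes, and the 250 bases before each start were read on both strands. The window of Scn9a, the gene with the largest rise, lies at chr2:66634963-66635212 on the minus strand, and that of Kcnk16, the two-pore gene with the largest rise, at chr14:20269270-20269519 on the minus strand. The capitals mark a match to CAGNTG, the E-box core that proendocrine basic helix-loop-helix factors can bind, on either strand.
Scn9a: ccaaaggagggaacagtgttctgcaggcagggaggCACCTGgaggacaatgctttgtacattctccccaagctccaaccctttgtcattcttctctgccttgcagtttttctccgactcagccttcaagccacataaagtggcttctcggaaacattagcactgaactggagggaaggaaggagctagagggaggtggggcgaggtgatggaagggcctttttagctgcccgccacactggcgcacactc
Kcnk16: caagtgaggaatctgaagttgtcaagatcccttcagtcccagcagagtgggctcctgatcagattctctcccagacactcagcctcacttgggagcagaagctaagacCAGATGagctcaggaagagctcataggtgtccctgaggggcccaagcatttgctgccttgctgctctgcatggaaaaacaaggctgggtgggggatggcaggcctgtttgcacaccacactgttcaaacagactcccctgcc
A match to CAGNTG was present in 9 of 22 windows of genes that rose (40.9%), in 6 of 11 windows of genes that fell, and in 44.8% of all 32851 windows. The 10-base half-site of the p53 family was present in none of the 22 windows of genes that rose, in 1 of 11 of those that fell, and in 7.13% of all windows. The core of the RE1 element, bound by the neuronal repressor REST, matched no window of a channel gene and 0.0335% of all windows. A match is only a description of these letters, and windows of 1 gene are not independent.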

How the data were processed

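The authors deposited unnormalized whole-number counts for each gene symbol, 1 column per sample. The submitters' processing notes name build mm9 and the tools TopHat2 2.1.0, bcl2fastq 1.8.4 and DESeq2. The sources used here do not give the counter, annotation or strand setting.

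The main test was edgeR 4.0.16 in R 4.3.3 (filterByExpr, minimum count 10, total 15, TMM scaling, a quasi-likelihood fit on group alone). Benjamini-Hochberg adjustment ran over all 13849 tested of 18572 genes with a count, with calls at 0.05. CPM are TMM-scaled, mean ± SD over 3 libraries, and the SE is the log2 fold change over the square root of F. In a test on simulated data for this comparison (13744 genes), 46.3%, 92.5% and 100% of genes changed 1.5-, 2- and 4-fold were recovered. The changed genes were drawn only from genes above a minimum mean count, and every gene was given the same dispersion. These shares therefore do not carry over to members with few counts or a wider spread. Libraries of the same group differed by more than sampling noise (chi-square per degree of freedom 7.53 to 15.3).

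Named genes were the 8 largest non-overlapping changes in each direction for potassium and 5 for calcium, all called sodium and HCN genes, the most abundant members, the untested member with the most counts, and 3 partners with the lowest p. Other members were named, after their values were seen, to account for the set. Some items are not reported here and are left out of the plots of single genes, but stay in the counts. The members and lists were chosen with earlier results of these data known.

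Alternatives were DESeq2 1.42.0, limma-voom (limma 3.58.1), 2 scalings, 2 filters, a replicate block, each library left out, and an adjusted p under 0.01.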

Additional observations from a re-analysis of the deposited data

How the results depend on the processing

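All 41 channel calls kept their direction under every alternative run, except that Kcnt1 was not tested with the 1 CPM filter. Of them, 39 were kept with DESeq2 and without a filter, 40 with upper quartile scaling, with the 1 CPM filter and with limma-voom, and 41 with RLE scaling. With a library left out, between 34 (without control replicate 1 or p63KO replicate 1) and 38 were kept. At an adjusted p under 0.01, 2580 genes changed in place of 4098, 3 potassium genes fell in place of 7, and 9 partners rose and 2 fell in place of 14 and 5. Calcium genes that fell numbered 2 in place of 1 with DESeq2 and without a filter. With 1 library left out, 3 to 6 potassium genes fell, 1 to 2 calcium genes fell, 1 to 2 HCN genes rose and 2 to 5 partners fell. Of the 36 genes the rule named, none reversed in 467 refits, and 21 refits lost the call. Many of these genes were picked for large changes in the same libraries, and Cacnb3, Scn2b and Hcn3 had no call to lose. The refits are therefore no independent check. Same-numbered samples deviated together with correlations of 0.22, 0.28 and 0.06, so the numbers were not taken as pairs. The replicate block kept all 41 calls and gave 2 calcium genes that fell in place of 1. The low-count filter left 61 of the 134 channel genes without a test in the main analysis.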
